A study of Rattus norvegicus with 2 samples.

Results

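The lectin receptor genes Klrc1, Klrc2, Klrc3, Klrd1, Klrk1, Klre1, Klrh1, Klri1, Klri2 and Klrg1 were examined in splenic natural killer (NK) cells of the rat. The rule takes them by name, as the CD94/NKG2 receptors, NKG2D, the KLRE, KLRH and KLRI lectins and KLRG1, and uses no measured value, but the group was proposed with earlier results of these data known. Of the 10 genes, 7 had a probe set that carried their symbol alone, 1 each, among 14217 genes on the array. These were Klrc1, Klrc2, Klrd1, Klrk1, Klre1, Klrh1 and Klrg1. Klrc3, Klri1 and Klri2 are not analysed here. Of probe sets annotated with several genes, 0 named a member. None of the members' products was used to sort the cells.

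A pair of NK cell populations was compared, NKR-P1B+ cells and Ly49s3+ cells, each positive for only 1 of these receptors. Both came from spleens of PVG.7b rats aged 8 to 12 weeks, of which 9 were used, and both were sorted for NKR-P1A without CD3 to a purity above 90%, per the labels. NKR-P1B is an inhibitory and Ly49s3 an activating lectin-like receptor. Cells of both populations had first been depleted with antibodies to CD5, CD45RA, CD68, the immunoglobulin kappa chain and the T cell receptor of alpha-beta T cells. Each population was hybridised to 1 array, so there is no replicate, no difference could be tested between the populations, and the number of arrays limits the precision.

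NK cells read the state of other cells through paired receptors, some inhibitory and some activating, many of them C-type lectin-like proteins encoded together in the NK gene complex. CD94, the product of Klrd1, forms heterodimers with NKG2 chains. With the inhibitory chain NKG2A, the product of Klrc1, the dimer signals through tyrosine-based inhibitory motifs and the phosphatases they recruit, and with an activating chain such as the product of Klrc2 it signals through the adaptor DAP12. These dimers bind non-classical MHC class I molecules. NKG2D, the product of Klrk1, is a homodimer without CD94 that recognises stress-induced ligands and signals through the adaptors DAP10 and DAP12. KLRE1 pairs with KLRI1 to form an inhibitory and with KLRI2 to form an activating receptor, KLRH1 is a lectin-like receptor of rat NK cells, and KLRG1 is an inhibitory receptor that binds cadherins.

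The genes fell into a flat and a divergent set. Klrc1 and Klrc2 had signals 4.84-fold and 4.96-fold higher in NKR-P1B+ cells, and Klrh1 had a signal 26.4-fold higher in Ly49s3+ cells. Klrd1, Klrk1 and Klrg1 differed by less than 1.2-fold, and Klre1 lay between, 1.59-fold higher in Ly49s3+ cells. The stretches before the 3 divergent genes are shown because these are the genes whose signals separated the arrays. They are the 250 bases upstream of each RefSeq gene start on chromosome 4 of the GRCr8 assembly, read 5′ to 3′ on the strand of the gene. Capitals mark the letters ACCACA, the reverse complement of the RUNX motif TGTGGT. The RUNX factors are transcription factors of lymphocytes.
Klrc1, chr4:164838447-164838696, minus strand: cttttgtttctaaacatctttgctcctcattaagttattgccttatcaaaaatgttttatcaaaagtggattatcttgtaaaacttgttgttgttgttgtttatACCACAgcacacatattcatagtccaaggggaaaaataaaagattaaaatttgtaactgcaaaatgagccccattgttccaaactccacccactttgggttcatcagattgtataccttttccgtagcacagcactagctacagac
Klrc2, chr4:164819866-164820115, minus strand: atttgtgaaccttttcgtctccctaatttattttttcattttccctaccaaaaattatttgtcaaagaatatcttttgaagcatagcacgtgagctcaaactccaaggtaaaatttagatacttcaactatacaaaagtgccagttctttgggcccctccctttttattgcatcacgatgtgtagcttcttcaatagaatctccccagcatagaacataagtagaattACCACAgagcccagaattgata
Klrh1, chr4:164987988-164988237, minus strand: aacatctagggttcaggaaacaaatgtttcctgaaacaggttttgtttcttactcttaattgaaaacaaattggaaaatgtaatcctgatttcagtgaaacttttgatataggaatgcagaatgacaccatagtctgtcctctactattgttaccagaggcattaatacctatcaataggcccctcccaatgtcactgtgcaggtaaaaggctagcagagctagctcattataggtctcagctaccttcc

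The RUNX letters started 146 bases before the gene start of Klrc1 and 22 bases before that of Klrc2. In neither orientation did they stand before Klrh1 or the third Klrc gene, Klrc3. They were also found before Klrk1, whose signal was nearly the same on both arrays. RefSeq held an upstream stretch of 8 of the 10 members, without Klrd1 and Klrg1, and 4 of the 8 carried the RUNX letters on 1 strand or the other. Of 27457 such stretches of all genes, 14.1% did. The NFAT letters GGAAAA stood on 1 strand or the other before 5 of the 8 members, including all 3 divergent genes and Klrk1, which was level, and before 21.3% of all genes. The TATA letters TATAAA stood before 3 of the 8, Klrc1 among them, against 13.1% of all genes. The GATA letters AGATAA likewise stood before 3, again with Klrc1, against 10.05%. The ETS letters AGGAAG stood before 2, both of them Klri genes, against 29.4%. Matches of the T-box letters AGGTGTGA and of the AP-1 letters TGANTCA numbered 0 of 8 each, against 0.96% and 6.36% of all genes. Matches of different motifs may overlap. Klrc1 and Klrc2 were identical at 47.7% of the positions of a global alignment of their upstream stretches. The other 27 pairs of members lay between 43.4% and 50.7%, with a median of 47.8%. Gaps count as positions in this share, and by it Klrc1 and Klrc2 did not stand out. They had 142 identical bases among 202 aligned pairs, beside 96 gap positions. Among the other pairs, Klrc3 and Klri2 came near these counts, with 143 identical bases among 205 aligned pairs, beside 90 gap positions. Shares over aligned pairs alone were not computed, so no rank by them is given. A match describes letters only and is no evidence of binding.

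Signals are the authors' MAS5 values in arbitrary units, on a linear scale. In the absence of detection calls a floor of 20.4, the median of all signals of both arrays without controls, was set for low values, and all 7 measured members were above it on both arrays. Of 14217 genes on the array 9114 had a signal above the floor on at least 1 array and are called measured. The median log2 difference of these, NKR-P1B+ minus Ly49s3+, was −0.02, and 2.98% of them were at least 2-fold apart. By the same threshold 3 of the 7 members were apart, 2 toward NKR-P1B+ cells, where 1.78% of measured genes lay, and 1 toward Ly49s3+ cells, where 1.21% lay. Counted by probe set, 2.74% of the 12170 measured probe sets with 1 gene symbol were that far apart. Scaling to the poly-A spikes lowered all Ly49s3+ values together, and the floor became 17. Under it 648 genes were 2-fold higher in NKR-P1B+ and 31 in Ly49s3+ cells, in place of 162 and 110. The median log2 difference of the 7 members was −0.00073, with a range from −4.72 to 2.31. Levels of different genes cannot be ranked against each other from these values, since each probe set has its own response.

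**Figure D1:**
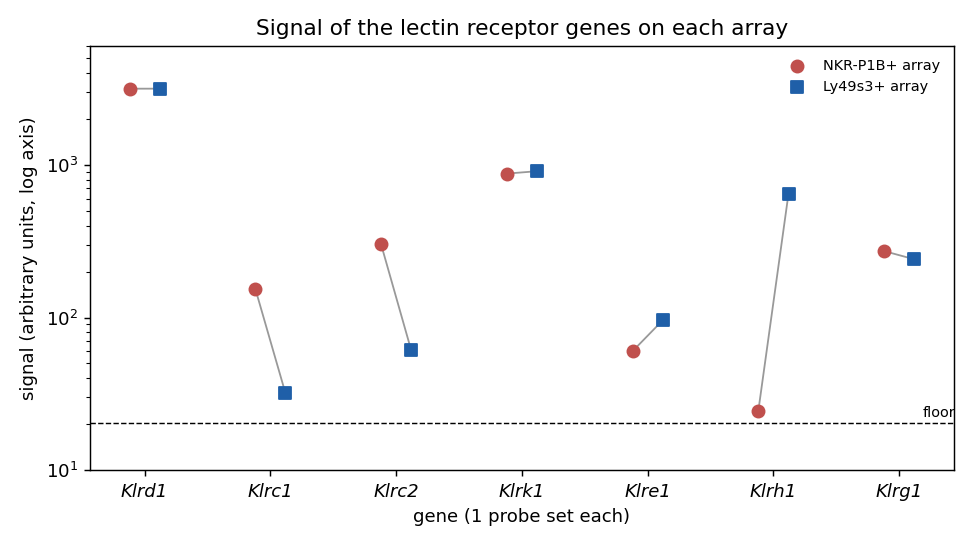
Signal in arbitrary units (log axis) of the 7 measured genes, with 1 circle for the NKR-P1B+ array and 1 square for the Ly49s3+ array per gene, joined by a line, and the floor of 20.4 as a dashed line. Klrc1 and Klrc2 fall from left to right, Klrh1 rises from 24.5, just above the floor, to 647.5, and Klrd1, Klrk1 and Klrg1 are nearly level.

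The shared chain CD94 gave almost the same signal in both populations. Klrd1 had a signal of 3149 in NKR-P1B+ cells and 3151 in Ly49s3+ cells. The log2 difference of −0.00073 gave no order of the populations for this gene, and it became 0.53 when the arrays were scaled to their poly-A spikes, a shift shared by all genes. Only 0.27% of the measured genes lay closer to a difference of 0.

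The NKG2 chains that pair with CD94 were apart, while CD94 itself was level. Klrc1, which encodes the inhibitory chain NKG2A, had a signal of 154 in NKR-P1B+ cells and 31.9 in Ly49s3+ cells. The signal of the NKR-P1B+ array was the higher one, with a log2 difference of 2.27, and the lower value was 1.56 times the floor. With the floor raised to 52.8, the 65th percentile of all signals, the Ly49s3+ value fell below it and the ratio became at least 2.92-fold. Klrc2, which RefSeq lists with the synonyms Nkg2E and rNKG2C, had 302 and 60.9, a log2 difference of 2.31. The NKR-P1B+ value was again the higher one, and the lower value was 2.99 times the floor. The differences of Klrc1 and Klrc2 were 0.04 apart on the log2 scale, and exceeded that of Klrd1 by 2.27 and 2.31. Of the measured genes, 11 had a larger difference toward NKR-P1B+ cells than Klrc1 and 10 a larger one than Klrc2.

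The inhibitory and the activating NKG2 chain thus had nearly the same ratio on the deposited scale, and both were above the floor of 20.4 in both populations. With 32 added to each value the ratios were 2.92-fold for Klrc1 and 3.59-fold for Klrc2. With the floor of 52.8 they were at least 2.92-fold and 4.96-fold, Klrc1 being below that floor in Ly49s3+ cells. Klrc1 and Klrc2 are neighbouring paralogs, and whether each probe set reads its own transcript alone, or that of Klrc3 too, was not tested.

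NKG2D, the receptor that does not need CD94, was level. Klrk1 had a signal of 875 in NKR-P1B+ cells and 908 in Ly49s3+ cells, 1.04-fold apart. The log2 difference of −0.05 was smaller than the disagreement between probe sets of one gene described below, and became 0.48 when the arrays were scaled to their poly-A spikes.

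The genes of the KLRE and KLRH lectins were higher in Ly49s3+ cells, to unlike degrees. Klre1, the chain shared by both KLRE/KLRI receptors, had 60.2 in NKR-P1B+ cells and 96.0 in Ly49s3+ cells, a log2 difference of −0.67. A distance of 1.5-fold or more in that direction was reached by 5.73% of measured genes, and 374 had a larger difference than Klre1. Scaled to the poly-A spikes, the difference of Klre1 was −0.14. Its partners Klri1 and Klri2 are not analysed here, so the inhibitory and the activating dimer cannot be told apart from these values.

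Klrh1 had the widest separation of the 7 genes, with a signal of 24.5 in NKR-P1B+ cells and 647.5 in Ly49s3+ cells. The first value was 1.201 times the floor and the second 31.7 times. The log2 difference was −4.72, and 2 measured genes, the Ly49 genes Klra5 and Klra22, had a larger one toward Ly49s3+ cells. With the higher floor of 52.8 the ratio was at least 12.3-fold, and with 32 added to each value in place of a floor it was 12.0-fold. The log2 difference of Klrh1 minus that of Klre1 was −4.05, though both were higher in the same population.

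KLRG1, an inhibitory receptor of mature NK and T cells, was close to level. Klrg1 had 272 in NKR-P1B+ cells and 241 in Ly49s3+ cells, 1.13-fold apart, with a log2 difference of 0.18. That difference became 0.71 when the arrays were scaled to their poly-A spikes. On the deposited scale Klrg1, Klrd1 and Klrk1 formed the 3 members within 1.2-fold, where 62.2% of measured genes lay. With the poly-A scaling none of them stayed within 1.2-fold.

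**Figure D2:**
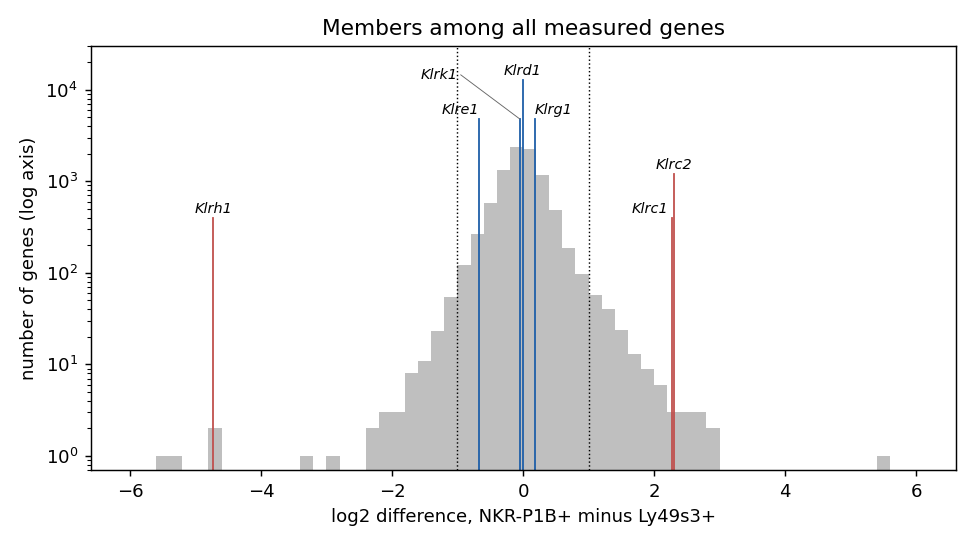
Number of measured genes (log axis) by log2 difference, NKR-P1B+ minus Ly49s3+, in grey for all 9114 genes, with vertical lines at the 7 members (red where at least 2-fold apart, blue otherwise) and dotted lines at 2-fold. Klrc1 and Klrc2 stand together in the right tail at 2.27 and 2.31, Klrh1 stands in the left tail at −4.72, and the other 4 lie inside the dotted lines.

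With 1 array per population, the only spread that these data hold is the disagreement between probe sets of one gene. Over 1993 genes with at least 2 probe sets above the floor on both arrays, the 2 brightest of each were compared. The SD of the gap between their log2 differences, divided by the square root of 2, was 0.27. It ran from 0.35 at low to 0.17 at high signals. The division gives the spread of 1 probe set, so the gap itself varied more. Each member has 1 probe set, so none could be checked in this way itself. The SD was taken at the mean log2 signal of each gene over both arrays. The difference was 7.39 times this SD for Klrc1, 10.2 times for Klrc2 and 15.4 times for Klrh1. It was 2.19 times for Klre1, 0.78 times for Klrg1, 0.31 times for Klrk1 and 0.004 times for Klrd1. The lower values of Klrc1, Klrc2, Klrh1 and Klre1 lay in the range of lowest signals, where the SD was 0.35. The multiples of these genes do not hold at those values. Probe sets of a gene share the rats, the sort and the array, so this SD leaves out the variation between rats, sorts and hybridisations and is no test between populations. In bulk RNA of sorted cells, fewer cells with a transcript and less transcript per cell cannot be told apart.

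The 3 genes with the nearest ratio to each divergent member, among genes above the floor on both arrays, were then listed. Over 2 arrays, likeness means no more than nearness of 1 ratio. Klrc2 was the nearest to Klrc1, and Klrc1 the nearest to Klrc2. The next to Klrc1 were Prrt1 and Grn, at 0.08 and 0.12 on the log2 scale, and the next to Klrc2 were Prrt1 and Ankrd6, at 0.12 and 0.14. Klrh1 had no near neighbour among genes that passed this filter. The 3 closest, Vegfc, F5 and Trat1, had log2 differences of −2.23, −2.01 and −2.01, at least 2.50 away from that of Klrh1. The filter left out Klra4, Klra22 and Klra5, whose NKR-P1B+ values were below the floor. Their log2 differences, given as bounds, were −3.21, −5.23 and −5.56.

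The GRCr8 annotation was used for gene order, upstream stretches and a check of symbols. Probe sets were not placed on it, because the sources name no build for them. All 10 genes lie on its chromosome 4. Apart from Klrg1, which stands 238 annotated genes away, they form an unbroken series of 11 genes in which only the pseudogenes Hax1-ps6 and Hax1-ps4 intervene. The order is Klre1, Klrd1, Klrk1, Klrc3, Klrc2, Klrc1, Klri1, Klri2 and Klrh1. Along this order the differences changed direction, from −0.67 at Klre1 through −0.00073 at Klrd1 and −0.05 at Klrk1 to 2.31 at Klrc2 and 2.27 at Klrc1, and on to −4.72 at Klrh1. Klrk1 and Klrc2, with only Klrc3 between them, thus stood 1.04-fold and 4.96-fold apart.

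Klrh1 stands at the end of the series that borders the Ly49 genes. The next gene in the annotation with a probe set, Klra4, had 18.1 in NKR-P1B+ cells and 189 in Ly49s3+ cells, at least 9.25-fold apart. Klra22 and Klra5 followed, at least 37.5-fold and 47.2-fold higher in Ly49s3+ cells. Ly49 genes are alike, cells were sorted by 1 Ly49 receptor, and how much of these signals is that of the sorted receptor was not tested. Whether the Klrh1 probe set takes up Ly49 transcripts was not tested either. At the other end, Gabarapl1, a ubiquitin-like gene of autophagy next to Klre1, had 437 and 266, 1.65-fold higher in NKR-P1B+ cells, opposite to Klre1.

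**Figure D3:**
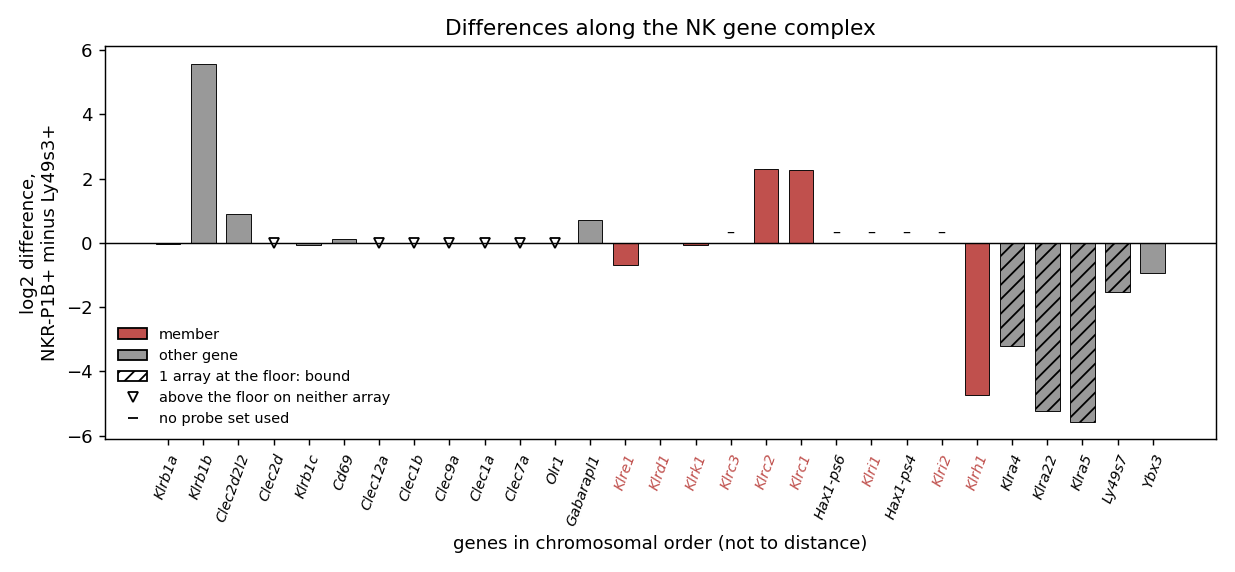
Log2 difference, NKR-P1B+ minus Ly49s3+, of genes in chromosomal order (evenly spaced, not to distance), with members in red and other genes in grey, hatched bars where 1 array was at the floor so that the bar is a bound, triangles where neither array was above the floor, and dashes where no probe set was used. Outside the members only genes with a probe set are drawn, without unnamed LOC genes. The bar of Klrb1b is that of a receptor used for the sort. The red bars of Klrc2 and Klrc1 point up and that of Klrh1 points down, as do those of the Ly49 genes to its right.

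Other lectins listed as genes of the same complex, with the Ly49 genes left out, gave a background for the members. Of 13 on the array, 6 were measured, and 7 were not above the floor on either array, among them Clec12a, Clec1a, Clec1b, Clec7a, Clec9a and Olr1. Klrb1b, which encodes the sorted receptor NKR-P1B, had 1399 and 29.4 and is a check of the sort. Clec2d2l2, a lectin of the Clr family, was 1.88-fold higher in NKR-P1B+ cells, at 53.4 against 28.4. Klrb1a, the gene of the NKR-P1A receptor common to all sorted cells, had 3740 and 3813, and Klrb1c had 1845 and 1944. The early activation gene Cd69 had 4586 and 4244, and Clec2l, above the floor in Ly49s3+ cells only, had 20.3 and 25.1. Clec2l was on this list, but it was not found in the chromosomal order from Klrb1a to Ybx3. Without Klrb1b, 0 of the other 5 measured lectins of this list were thus at least 2-fold apart. The members had 3 of 7, and 2.98% of measured genes were that far apart. The difference between these counts was not tested. Klrb1a among the 5 encodes NKR-P1A, for which both populations were sorted. Outside this list, the Ly49 genes Klra4, Klra22, Klra5 and Ly49s7 were at least 9.25-fold, 37.5-fold, 47.2-fold and 2.90-fold higher in Ly49s3+ cells.

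The adaptors through which the members signal differed little. Hcst, which encodes DAP10, the partner of NKG2D, had 2195 in NKR-P1B+ cells and 1831 in Ly49s3+ cells, a log2 difference of 0.26. Tyrobp, which encodes DAP12, the partner of the activating CD94/NKG2 dimers, had 787 and 624, a log2 difference of 0.34. Ptpn6, which encodes the phosphatase SHP-1 recruited by inhibitory motifs, had 863 and 906. Inpp5d, which encodes the phosphatase SHIP-1, had 470 and 345, a log2 difference of 0.45. Of 18 adaptor and proximal signalling genes 17 were measured, with a median of 0.09 and a range from −0.35 for the kinase gene Fyn to 0.45 for Inpp5d. With the poly-A scaling the list median was 0.62, against 0.51 for all genes above the floor on both arrays. On the deposited scale none of the 17 was 1.5-fold apart, a distance reached by 10.8% of measured genes in either direction. By that threshold 4 of the 7 members were apart, 2 toward each array, where 5.11% (NKR-P1B+) and 5.73% (Ly49s3+) of measured genes lay.

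Of 13 genes listed as ligands of these receptors or as parts of ligands, 3 had a probe set. B2m, the light chain of MHC class I molecules, had 5196 and 4871. Cdh1, which encodes the KLRG1 ligand E-cadherin, had 50.8 in NKR-P1B+ cells and 38.8 in Ly49s3+ cells. The other cadherin gene, Cdh2, was below the floor on both.

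The sorted cells carried NK cell transcripts. All 10 NK cell markers with a probe set were above the floor on both arrays, among them Prf1, the perforin gene, at 4024 and 3006, and Klrb1a. Their median log2 difference was 0.32, with Faslg at 1304 against 437 and Eomes at 1237 against 1821. Of T cell markers 6 of 9 were measured, with Cd247, which NK cells also use, and Cd6 as the brightest. Cd3d, Cd3e and Cd8b were below the floor on both arrays, Cd3g had 22.3 against 42.9, and Cd5 was 2.27-fold higher in NKR-P1B+ cells, at 92.7 against 40.8. Of macrophage and antigen-presenting cell markers 6 of 15 were measured. Cd68, Csf1r, Adgre1 and the C1q genes were below the floor, whereas RT1-Da, a class II gene, was 3.54-fold higher in NKR-P1B+ cells, at 346 against 97.7, and Lyz2 2.68-fold, at 356 against 133. Itgax, at 2281 against 1716, and Lyz2 were the brightest of that list. The signals of the list summed to 3298 in NKR-P1B+ cells and 2180 in Ly49s3+ cells, and Itgax made up most of both sums. Those of the T cell list summed to 2439 and 2582. Without Cd247, a sum chosen after seeing the data, the T cell list came to 431 and 353, so its direction turned.

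Of B cell markers 2 of 6 were measured, Cd22 at 103 against 52.9 and Blnk at 26.1 against 0.9, with Cd79b and Ms4a1 below the floor, and the list summed to 149 and 86.2. Neutrophil and mast cell markers summed to 50.1 and 69.5, with 2 of 7 measured, Mcpt8 at 21.4 against 38.1 and Cpa3, above the floor in Ly49s3+ cells only, at 21.0. Erythroid and platelet markers summed to 404 and 337, with 3 of 7 measured, led by Hbb at 276 against 153 and Hemgn at 50.6 against 131. The macrophage, B cell and erythroid and platelet sums, and the T cell sum without Cd247, were thus higher on the same array as Klrc1 and Klrc2. The neutrophil and mast cell sum, and the T cell sum with Cd247, were higher on the same array as Klrh1. Their part in the differences of the members was not tested.

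The direction and 2-fold distance of Klrc1, Klrc2 and Klrh1 were kept under all 7 other settings of floor and scaling that were tried. The smallest log2 differences among them were 1.54 for Klrc1, 1.85 for Klrc2 and −3.59 for Klrh1, all with 32 added to each value. Scaling to the poly-A spikes moved all genes together, to a median of 0.51 for genes above the floor on each array. Relative to that median Klrc1 was at 2.29, Klrc2 at 2.33, Klrd1 at 0.02, Klrk1 at −0.03, Klre1 at −0.65, Klrh1 at −4.70 and Klrg1 at 0.20.

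**Figure D4:**
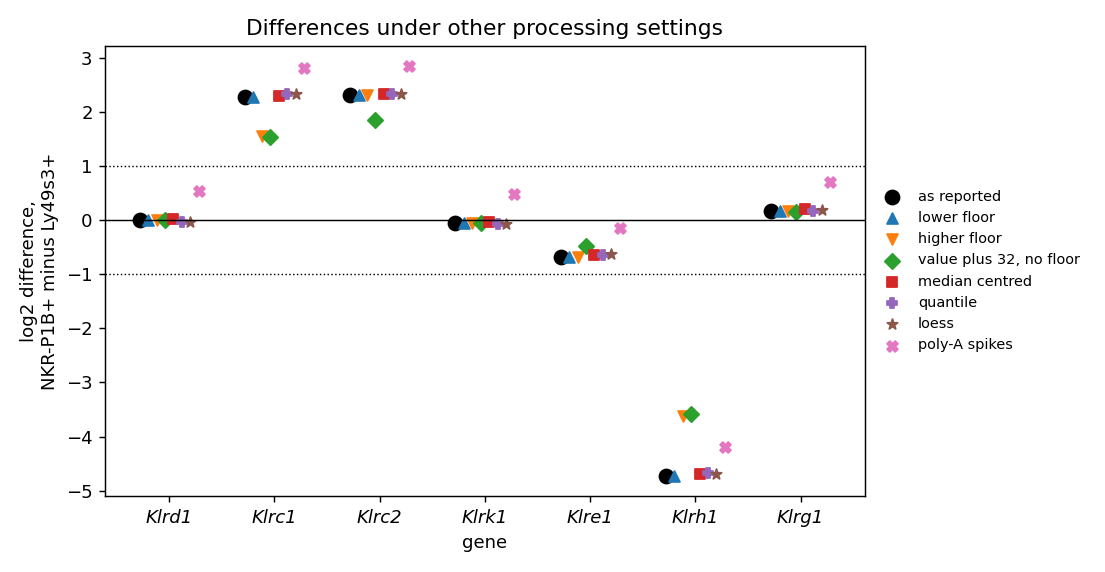
Log2 difference, NKR-P1B+ minus Ly49s3+, of the 7 measured genes as reported (black circles) and under 7 other settings of floor and scaling (coloured symbols), with dotted lines at 2-fold. Klrc1 and Klrc2 stay above the upper line and Klrh1 below the lower one under every setting drawn, and the poly-A scaling shifts all 7 genes upward by 0.53.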

How the data were processed

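The authors computed 1 intensity per probe set with MAS5, per the submitters' processing notes, and deposited it untransformed (linear). The sources used here give neither the MAS5 version nor its scaling target and detection calls, so the scaling factor stays unknown. The medians were 19.6 on the NKR-P1B+ and 21.3 on the Ly49s3+ array. The 3′ to 5′ ratios of the actin controls were 11.9 and 13.2 and those of Gapdh 2.84 and 2.77. The input to labelling was 3 ug of total RNA, per the labels' protocols, and how the RNA of the 9 rats was pooled is not given there.

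Gene names of probe sets came from the platform annotation. Of 31099, 20832 had 1 gene symbol, 436 several and 9831 none. RefSeq's GRCr8 table held the genes of 20764 of them and changed 0 symbols. Values were floored at 20.4, the 50th percentile of all signals without controls, then put on the log2 scale. Where a gene had several probe sets, the one of highest mean log2 value stood for it. A ratio in which 1 value was set to the floor is only a bound. With 1 array per population no p-value was computed. The steps were tested on simulated data under the main setting and some of the others. Changes were planted only in genes well above the floor on both arrays, so signals near the floor were not covered. Upstream sequences are RefSeq's, and alignments scored 1 for a match, −1 for a mismatch, −3 to open and −0.5 to extend a gap. Python 3.11.15, pandas 2.3.3, statsmodels 0.14.6 and Biopython 1.88 were used.

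The rule named every member, Hcst and Tyrobp, pathway genes at least 1.5-fold apart, the 2 brightest markers of each list, the other lectins and the 3 nearest ratios. Inpp5d, Fyn, Ptpn6, Gabarapl1 and the further markers named were chosen after their values were seen, as were the motifs searched. The members and lists were chosen with earlier results of these data known. The other settings were floors at the 35th and 65th percentiles, log2 of the value plus 32, centring on the median, quantile normalisation, a loess trend with a span of 0.3, and scaling to the 17 poly-A spike probe sets above the floor.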

Additional observations from a re-analysis of the deposited data

How the results depend on the processing

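The count of 3 members at least 2-fold apart, by gene or by probe set, and its split of 2 toward NKR-P1B+ cells and 1 toward Ly49s3+ cells were the same under all 7 other settings. The gene count was also 3 when all probe sets of a gene were averaged and when probe sets with several genes were admitted, which changed nothing since each member has 1 probe set. Over the 7 settings the log2 difference ran from 1.54 to 2.81 for Klrc1, from 1.85 to 2.84 for Klrc2, from −4.72 to −3.59 for Klrh1 and from −0.67 to −0.14 for Klre1. For Klrg1 it ran from 0.16 to 0.71. The sign changed under 2 settings for Klrd1 and 1 for Klrk1, both of which lay near 0. Over all genes, the count at least 2-fold higher was 162 in NKR-P1B+ cells and 110 in Ly49s3+ cells. It was 273 and 298 with the lower floor of 9.6, 86 and 43 with the higher of 52.8, 77 and 37 with 32 added, and 648 and 31 with the poly-A scaling. The median of the 2 measured ligand genes went from 0.24 to 0.09 with the higher floor, under which Cdh1 was no longer measured. No paired analysis was possible because each population has 1 array, and no replicate could be left out. Low signals limit Klrh1 in NKR-P1B+ cells and Klrc1 in Ly49s3+ cells, at 1.201 and 1.56 times the floor.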

Other observations

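At the far border of the Ly49 genes, Ybx3, which encodes a cold shock domain protein and is the next annotated gene with a probe set, was 1.93-fold higher on the Ly49s3+ array, at 396 against 206. This gene was chosen after its value was seen.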
